A study of Mus musculus with 30 samples.

Results

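The comparison described here sets distal colon of germ-free mice that were given a microbiota late against distal colon of specific-pathogen-free mice, both untreated. Its members are the 6 colon libraries whose titles mark untreated 10-week-old COL mice (3) or untreated 10-week-old SPF mice (3), of 30 libraries in the series. Every difference is COL minus SPF, so a positive log2 fold change means a higher level in COL. All mice were of the C3H/HeOuJ strain. COL mice were germ-free mice that received SPF microbiota in week 5 of life, and SPF mice were specific-pathogen-free. The series also holds colon of both kinds of mice after DSS (dextran sulfate sodium, known to damage the lining of the colon), at 1.5% for 4 days and followed by 2 days of water, and terminal ileum of COL, SPF and germ-free mice. The DSS colon and the 10-week ileum serve below as other settings for the same contrast, and they share no library with the 6. The labels do not say whether the 3 libraries of a group are separate mice, so p-values measure only the spread between libraries, which may be technical. They also do not say whether colon and ileum came from the same mice, at which hour tissue was taken, or of which sex the mice were.

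Bacteria reach the colon in great numbers and are held off by mucus, antimicrobial proteins, IgA and the macrophages of the lamina propria, a population that is replenished from blood monocytes. Germ-free animals lack part of these responses, and much of the deficit is known to fill in after colonization, while some immune traits depend on exposure early in life. Chaperones, the genes that lead the comparison below, fold new proteins and refold damaged ones, and many are switched on together by the transcription factor HSF1 when cells are stressed.

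The values are counts of 3′ tags per gene, short reads from the end of each transcript, scaled to a common library size and given as CPM. The 6 libraries held 3830539 to 6018359 reads in genes, which was 44.6 to 49.4% of the reads listed, with 14887 to 15728 genes seen at least once. Distal colon genes marked the tissue as labelled. With all 30 libraries scaled together, Hoxb13, a homeobox gene of the hind end of the gut, stood at 366 to 1192 CPM in the 6 libraries and at 0 to 1.58 CPM in the 6 ileum libraries of the same age, and the bile acid binding protein gene Fabp6 of the ileum at 6.91 to 49.2 against 11192 to 33363 CPM.

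The 3 COL libraries were close to one another and the SPF libraries were not. The root mean square log2 CPM difference between 2 libraries was 0.52 to 0.54 within COL and 0.67 to 0.87 within SPF, and 0.62 to 0.78 between the groups. SPF library 3 lay 0.87 from SPF library 1 and 0.81 from SPF library 2, and only 0.62, 0.70 and 0.66 from COL libraries 1, 2 and 3. It therefore stood nearer to each COL library than to either library of its own group. SPF library 2 also stood nearer to COL libraries 1 and 3 (0.66 and 0.63) than to SPF libraries 1 and 3 (0.67 and 0.81). The library farthest from each COL library was SPF library 1 (0.78, 0.78 and 0.74 from COL libraries 1, 2 and 3). It also held the fewest reads in genes of the untreated colon libraries (3830539, 44.6% of the reads listed). Whether SPF library 3, or any other library, carries the right label was not tested. For named genes that edgeR called when SPF library 3 was left out, that value is given as well. That library was singled out with these same data, and leaving out any of the others gave 0 or 1 calls. Values without SPF library 3 therefore describe how a gene depends on it and are not independent support.

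**Figure D1:**
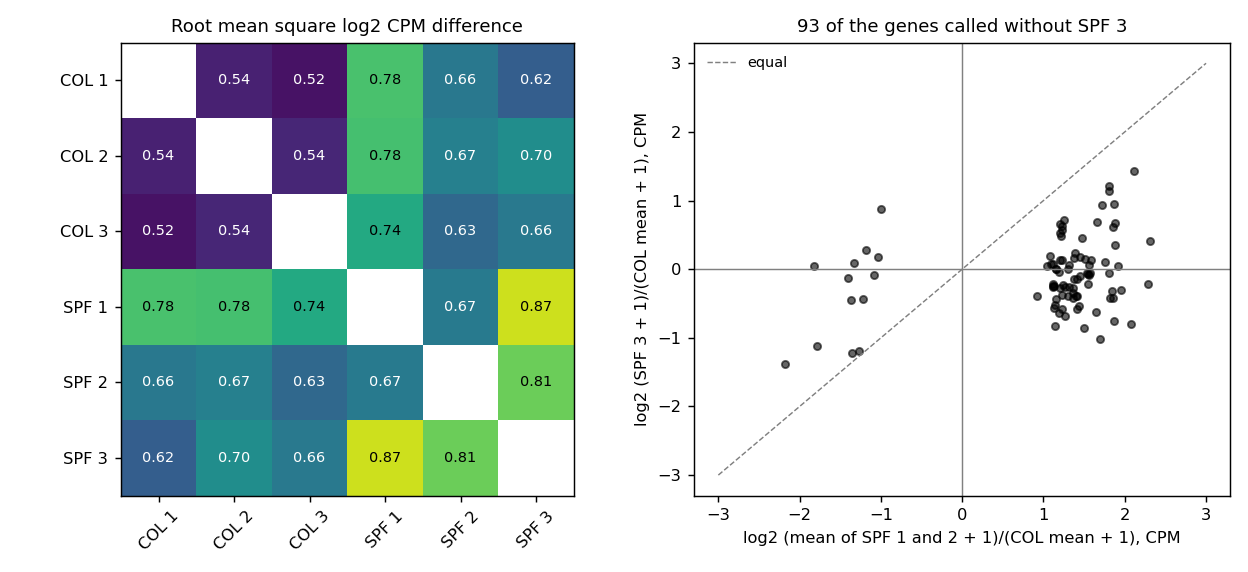
Left, root mean square log2 CPM difference for each pair of the 6 untreated colon libraries. SPF 3 differs by 0.87 from SPF 1 and by 0.62 from COL 1. Right, for 93 genes called when SPF 3 is left out, the mean of SPF 1 and 2 (x axis) and SPF 3 (y axis), each as log2 ratio to the COL mean in CPM with 1 added to both. Points on the dashed line would have SPF 3 level with SPF 1 and 2. Among the 80 lower genes SPF 3 is at or below the highest COL library in 57.

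Of 12855 genes tested in untreated colon, 0 were called by edgeR's quasi-likelihood test (Benjamini-Hochberg adjusted p under 0.05, a background of 0%), and 988 (7.69%) had an unadjusted p under 0.05, 355 of them higher in COL (2.76%) and 633 lower (4.92%). DESeq2 on the same counts called 28 (0.218%), 15 higher and 13 lower, of which 6 are members of the heat-shock chaperone list. All 3 COL libraries lay above all 3 SPF libraries in 799 genes (6.22%) and below them in 864 (6.72%). The median log2 fold change over all genes was -0.02. Because a missed threshold does not show equal levels, the 95% interval of each fold change was set against a bound of 2-fold, and it lay inside that bound for 6857 genes (53.3%). For the other genes the interval reached past 2-fold in at least 1 direction, apart from 7 for which no interval could be computed.

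Among the 37 gene lists, the heat-shock chaperone list had the highest median in COL. Of 23 listed and tested members, 21 had a log2 fold change above 0 (47.7% of all genes did), 13 had an unadjusted p under 0.05 upward (background 2.76%) and 0 downward (4.92%), and 10 were higher without overlap between the groups (background 6.22%). The median over the list was 0.70. Since the lists were chosen with earlier results of these data known, such counts, here and in the other settings, are descriptions and not independent tests. After adjustment over all genes 0 passed in edgeR with all libraries, and Dnaja1 was the 1 member that passed without SPF library 3. In DESeq2 with all libraries 6 passed, namely Hspa1a, Hspa1b, Dnaja1, Chordc1, Hsph1 and Hsp90aa1. The summed level of the list ran from 2615 to 3747 CPM in the COL libraries and from 2034 to 2392 CPM in the SPF libraries. The count of 13 was 9 to 12 when 1 of the 6 libraries was left out in turn, and 11 without SPF library 3.

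The inducible Hsp70 genes had the largest folds of the list. Gene positions below are GENCODE vM21 on mm10, and all of these genes are annotated as protein coding except Firre. Hspa1a (chromosome 17, 34969190 to 34972156) was at 189, 52.2 and 96 CPM in COL libraries 1, 2 and 3 and at 28.4, 23 and 13.7 CPM in the SPF libraries, a log2 fold change of 2.38 ± 0.46 (standard error, here and below), adjusted p = 0.26 by edgeR. Its neighbour and near-identical copy Hspa1b (chromosome 17, 34956436 to 34959238) was at 329.9, 99.5 and 224 against 55.3, 65.9 and 33.9 CPM (2.08 ± 0.42). The lowest COL library lay above the highest SPF library for both genes, while the COL libraries differed among themselves by more than 3-fold. The files list reads that map to several places apart from the gene counts, so the level of each of these 2 genes is uncertain. The Hsp110 gene Hsph1 (chromosome 5, 149614287 to 149636376), whose product recharges Hsp70 with nucleotide, was at 165, 94.4 and 158 against 36.6, 48.9 and 28.2 CPM (1.88 ± 0.45).

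The partners of Hsp70 and Hsp90 followed. Dnaja1 (chromosome 4, 40722150 to 40737149), an Hsp40 that hands substrates to Hsp70, had the smallest unadjusted p of all genes tested, at 207, 141 and 155 against 59.99, 70.4 and 71.4 CPM (1.32 ± 0.24, 95% interval 0.81 to 1.83, adjusted p = 0.26). Without SPF library 3 it passed in edgeR (1.36, adjusted p = 0.032). Stress-inducible Hsp90, Hsp90aa1 (chromosome 12, 110690605 to 110702728), was at 136, 138 and 149 against 63.9, 63.3 and 42.5 CPM (1.32 ± 0.30), and its cochaperone gene Chordc1 (chromosome 9, 18292125 to 18317442) at 98.2, 75.9 and 103 against 41.6, 37.8 and 28.9 CPM (1.36 ± 0.29). The groups did not overlap in these 3 genes. Dnajb1 (0.70 ± 0.24), the constitutive Hsp70 gene Hspa8 (0.87 ± 0.30), the mitochondrial chaperonin gene Hspd1 (0.75 ± 0.32) and Cacybp (0.87 ± 0.28) were also higher without overlap. Ahsa2 (1.20 ± 0.26), an Hsp90 activator gene outside the list, was at 51.5, 32.5 and 39.6 against 18.2, 18.9 and 16.9 CPM.

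Other members overlapped between the groups. Bag3 (0.73 ± 0.28), Hspa4l (0.77 ± 0.32) and Ahsa1 (0.66 ± 0.29) had an unadjusted p under 0.05 with overlapping libraries. Constitutive Hsp90, Hsp90ab1 (0.35 ± 0.24), the Hsp10 gene Hspe1 (0.20 ± 0.30), the immunophilin gene Fkbp4 (0.16 ± 0.29) and Hsf1 itself (0.35 ± 0.27) did not reach that level. The 2 members below 0 were small heat-shock genes, Hspb8 at -0.21 ± 0.36 and Cryab at -1.12 ± 0.66, and another of that family, Hspb1, was at 0.19 ± 0.37. Cryab, which smooth muscle and glia also express, was at 38.3, 31.6 and 32.8 CPM in COL and at 107, 98.5 and 18.7 CPM in SPF, so SPF library 3 was the lowest of the 6.

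**Figure D2:**
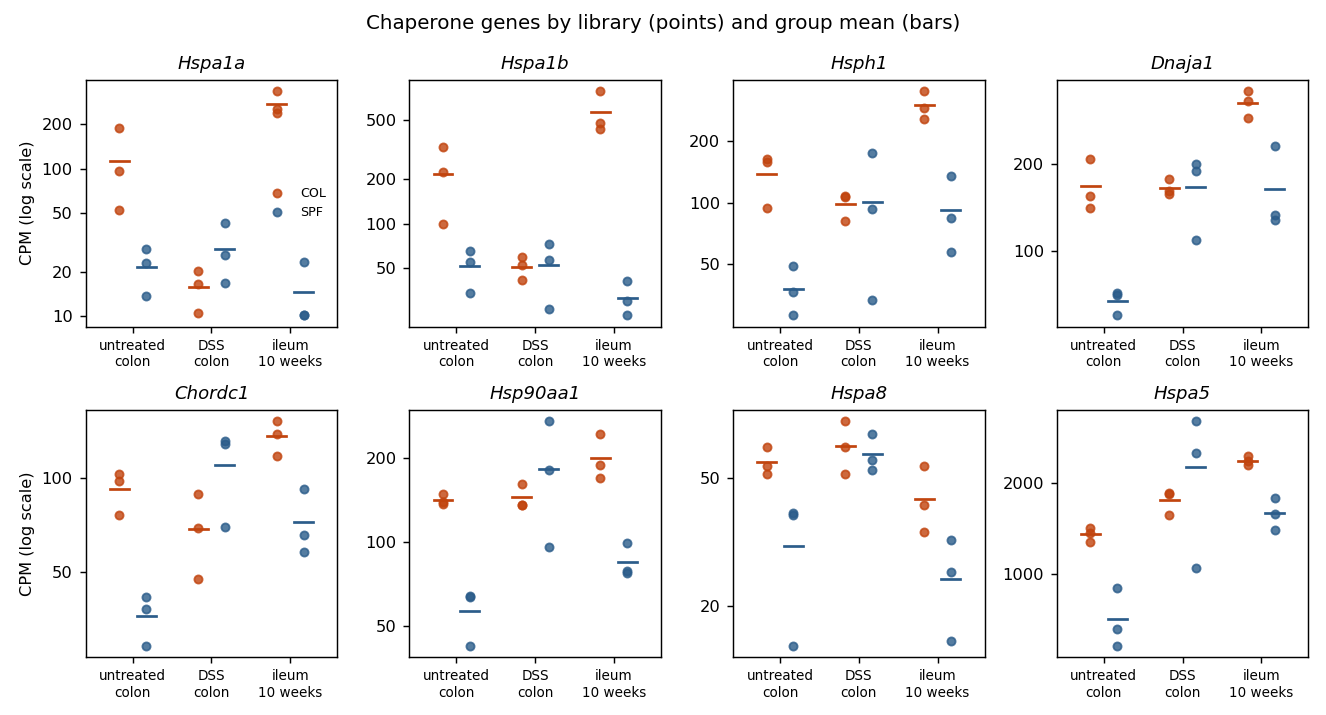
CPM (log scale) of 8 chaperone genes in every library (points) with group means (bars), for COL (orange) and SPF (blue) in untreated colon, DSS colon and 10-week ileum. In untreated colon the 3 COL points lie above the 3 SPF points in each panel, and in DSS colon the groups overlap in each panel.

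The upstream sequence of the leading chaperone genes is shown because HSF1 is known to bind inverted repeats of nGAAn there. RefSeq starts on build GRCm38.p6 were used, 250 bases upstream of each, and the core GAANNTTC, which reads the same on both strands, was searched. It occurred in 7 of the 18 list members with a window (Hspa1a, Hspa1b, Hspb1, Dnaja1, Hspd1, Hspe1 and Fkbp4; 38.9%), and in 7.73% of 27025 genes (6.69% of all windows). Of the 24 windows of these 18 members, 7 held it. The windows of Hspd1 and Hspe1 overlap, and their match is the same site read on opposite strands. Hspa1a and Hspa1b are near-identical copies, so the matches are not independent. The printed windows of Hspa1a (chr17:34972157-34972406, minus strand), Hspa1b (chr17:34959239-34959488, minus strand) and 1 of the 3 windows of Dnaja1 (chr4:40722218-40722467, plus strand) run 5′ to 3′ towards the start, with the core in capitals.
Hspa1a: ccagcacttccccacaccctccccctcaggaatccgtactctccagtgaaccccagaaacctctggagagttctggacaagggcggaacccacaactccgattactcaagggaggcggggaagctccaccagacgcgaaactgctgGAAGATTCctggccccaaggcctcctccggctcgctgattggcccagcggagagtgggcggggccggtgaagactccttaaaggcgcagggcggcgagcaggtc
Hspa1b: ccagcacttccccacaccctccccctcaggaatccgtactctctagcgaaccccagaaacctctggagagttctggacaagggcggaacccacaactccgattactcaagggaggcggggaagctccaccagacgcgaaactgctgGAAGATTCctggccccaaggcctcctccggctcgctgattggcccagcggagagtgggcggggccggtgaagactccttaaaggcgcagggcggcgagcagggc
Dnaja1: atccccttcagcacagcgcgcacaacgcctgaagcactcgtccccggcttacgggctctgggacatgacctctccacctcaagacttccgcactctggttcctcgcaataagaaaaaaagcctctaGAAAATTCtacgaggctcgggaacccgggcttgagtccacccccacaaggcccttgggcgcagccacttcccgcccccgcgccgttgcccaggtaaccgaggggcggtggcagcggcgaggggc
The Hspa1a and Hspa1b windows share 247 of 250 bases, and differ by C44T, T47C and T249G (Hspa1a base first, position from 1 at the 5′ end, then the Hspa1b base). The core ends 96 bases before the start in both and 116 bases before it in the printed window of Dnaja1. The Dnaja1 windows at chr4:40722672-40722921 and chr4:40722680-40722929 held no core. Bases just past their starts were found in GENCODE transcripts of Dnaja1, and those past the start of the printed window were not. The printed Dnaja1 window also lies inside the gene as GENCODE places it. Hsph1, Chordc1, Dnajb1 and Cacybp, which were higher in COL without overlap, held no such core in these windows. Nor did Bag3, Hspa4l and Ahsa1, which had an unadjusted p under 0.05 with overlapping libraries. Hspb1, Hspe1 and Fkbp4, which held the core, did not reach an unadjusted p under 0.05. Whether the core goes with the difference between COL and SPF was not tested.

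The same list lay above 0 in ileum and not in DSS colon. In the 10-week ileum all 23 members had a log2 fold change above 0 (46.9% of all genes did), 17 had an unadjusted p under 0.05 upward (background 2.77%) and 0 downward (3.65%), and the median was 0.91. Over all genes edgeR called 7 of 13807 in that ileum comparison (0.0507%). Genes of other tissue layers were higher in COL ileum too. There 18 of 18 smooth muscle genes were above 0 (median 0.64), 7 of 26 collagen, matrix and fibroblast genes were higher and 0 lower at an unadjusted p under 0.05, and 4 of 15 distal colon identity genes were higher and 1 lower, with a median of 2.02. Their part in the ileum result was not tested. Hspa1b was at 436, 479.99 and 787 CPM in COL ileum and at 24.1, 29.9 and 41 CPM in SPF ileum (4.19 ± 0.56, adjusted p = 0.0013 by edgeR), and Hspa1a (4.34 ± 0.70, adjusted p = 0.012), Ahsa2 (1.41 ± 0.21, adjusted p = 0.0013) and Hsp90aa1 (1.23 ± 0.25, adjusted p = 0.044) passed there as well. Dnaja1 (0.99 ± 0.22, adjusted p = 0.12) and Hsph1 (1.72 ± 0.42, adjusted p = 0.25) did not. Among other ileum groups, Hspa1a was at 35.8, 293 and 152 CPM in 6-week COL mice and 26.1, 22.3 and 10.7 CPM in 6-week SPF mice. In germ-free ileum it was at 8.15, 6.28 and 5.47 CPM at 6 weeks and at 78.8, 19.4 and 35.7 CPM at 10 weeks. In DSS colon the list median was -0.10, with 8 of 23 members above 0 (background 49.6%) and 0 members upward and 3 downward at an unadjusted p under 0.05 (backgrounds 3.59% and 4.43%).

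The colon effect minus the ileum effect was negative at an unadjusted p under 0.05 for 5 of the 23 chaperone genes (background 3.4%) and positive for 0 (3.22%), none passing after adjustment.

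The difference between DSS and untreated colon in the COL minus SPF effect was tested as an interaction. For 10 of the 23 chaperone genes it was negative at an unadjusted p under 0.05 (background 4%), and for 1 it was positive (4.73%), with none passing after adjustment. Chordc1 gave -2.04 ± 0.40 and Hspa1a -3.22 ± 0.64 (adjusted p = 0.37 and 0.38). Hspa1a was at 20.4, 10.6 and 16.5 CPM in COL after DSS and at 16.8, 42.7 and 26 CPM in SPF after DSS, so both stood near the untreated SPF level. Hsp90aa1, by contrast, was at 136, 161 and 136 CPM and 95.4, 181 and 270.1 CPM, so there the COL level was like that of untreated COL and the SPF level was higher than in untreated SPF in all 3 libraries, a comparison that was not tested.

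**Figure D3:**
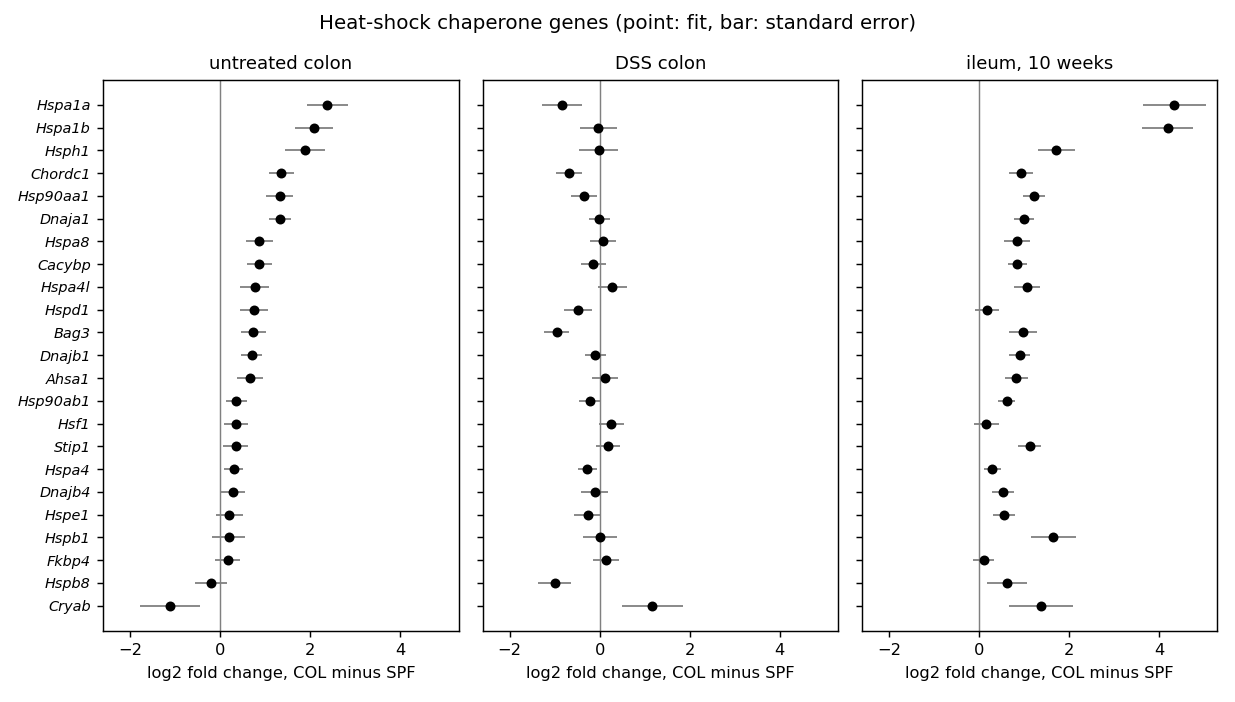
Log2 fold change, COL minus SPF, of the 23 heat-shock chaperone genes in untreated colon, DSS colon and 10-week ileum (points, with standard error as bars), in the order of the untreated colon values. The points lie above 0 for 21 genes in untreated colon, for 8 in DSS colon and for 23 in ileum.

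Chaperones of the endoplasmic reticulum, which fold secreted and membrane proteins, leaned the same way. Of 16 tested genes of the unfolded protein response, 14 had a log2 fold change above 0 (background 47.7%), 2 had an unadjusted p under 0.05 upward (2.76%) and 0 downward (4.92%), and the median was 0.34. Hspa5, the Hsp70 of that compartment, was at 1277, 1422 and 1370.3 against 581, 660.02 and 899 CPM (0.93 ± 0.32), and Hsp90b1, its Hsp90, at 480.2, 469 and 568 against 337, 331 and 338 CPM (0.59 ± 0.23). Both were higher in every COL library. Dnajc3 (0.41 ± 0.20) and Dnajb9 (0.53 ± 0.30) did not overlap either, whereas the stress-signalling genes Ddit3 (0.40 ± 0.34), Atf3 (-0.14 ± 0.64) and Trib3 (-0.39 ± 0.94) overlapped. The count of 2 was 6 without SPF library 3, and 1 without COL library 3.

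Cirbp, which encodes an RNA-binding protein known for its rise in the cold, was lower in COL. It was at 29.8, 21.4 and 28.4 against 43.7, 53.5 and 62.3 CPM (-1.003 ± 0.24, adjusted p = 0.35) without overlap. In 10-week ileum it was lower without overlap too (-0.80 ± 0.26, adjusted p = 0.51), and in DSS colon the groups overlapped (-0.07 ± 0.25). Cirbp lies on chromosome 10 at 80165985 to 80172786. Efna2 (chromosome 10, 80179482 to 80190010) is on the same strand, starts 6696 bases downstream of the end of Cirbp and differed in the other direction. Whether another gene lies between them was not examined.

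Efna2, which encodes ephrin-A2, a membrane-anchored ligand of Eph receptors in contacts between cells, was higher in COL in every setting. In untreated colon it was at 26.5, 15 and 18.4 CPM in COL and at 2.89, 4.35 and 7.05 CPM in SPF (2.04 ± 0.41, adjusted p = 0.26), and it passed in edgeR without SPF library 3 (2.45, adjusted p = 0.028). In DSS colon it was at 16.1, 14.2 and 9.6 against 1.09, 0.59 and 2.4 CPM (3.32 ± 0.48, adjusted p = 0.032), and in 10-week ileum 15, 11.7 and 7.2 against 1.85, 2.7 and 2.5 CPM (2.29 ± 0.42, adjusted p = 0.015), both past the threshold of edgeR's test. It was the 1 gene called in DSS colon (0.00778%). The 3 COL libraries were above the 3 SPF libraries each time, and the difference of that effect did not pass between DSS and untreated colon (1.28 ± 0.63, adjusted p = 0.59) or between colon and ileum (-0.24 ± 0.55, adjusted p = 0.97). Germ-free ileum was also high, at 10.3, 11.5 and 14.1 CPM at 10 weeks and 8.37, 8.95 and 17 CPM at 6 weeks, beside 7.67, 9.28 and 8.05 CPM in COL and 2.9, 1.94 and 2.68 CPM in SPF ileum at 6 weeks. SPF libraries thus held the lowest Efna2 levels in each tissue, age and treatment.

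The remaining genes of the 10 with the smallest p upward were mostly chaperones, with 3 others. Fam46a (chromosome 9, 85320439 to 85327348, Tent5a in GENCODE vM21), which encodes a poly(A) polymerase, was at 523, 498 and 411 against 187, 209 and 209 CPM (1.24 ± 0.24, adjusted p = 0.26). Groups overlapped for it in DSS colon (0.34 ± 0.24) and ileum (0.13 ± 0.23). Banp (chromosome 8, 121949750 to 122029258), which encodes a nuclear DNA-binding protein, was at 88.7, 43.6 and 59.2 against 17.9, 17.6 and 28.9 CPM (1.57 ± 0.33), was higher in ileum without overlap (1.35 ± 0.30) and overlapped in DSS colon (-0.04 ± 0.32). Without SPF library 3 Fam46a (1.27, adjusted p = 0.038) and Banp (1.85, adjusted p = 0.029) passed in edgeR. Ints8, a subunit gene of the Integrator complex, was at 26.6, 27.9 and 29.7 against 12.9, 15 and 12.8 CPM (1.05 ± 0.25). Of these 10 genes, 10 were higher in COL ileum, 8 of them without overlap (background 4.74%), and 3 were higher in COL after DSS, 1 of them without overlap (5.81%). Of the 10 genes chosen in the same way downward, 7 were lower in COL ileum, 2 of them without overlap (5.15%), and 8 were lower after DSS, 2 of them without overlap (6.55%).

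Among genes lower in COL, Ephb2 led. It encodes a receptor of ephrin-B ligands that is strongest in crypt base cells, depends on Wnt signals and keeps cells in their place along the crypt. Ephb2 (chromosome 4, 136647539 to 136835988) was at 12.7, 17.5 and 21.8 CPM in COL and at 61.6, 56.7 and 33.9 CPM in SPF (-1.55 ± 0.30, 95% interval -2.19 to -0.91, adjusted p = 0.26), and it passed in edgeR without SPF library 3 (-1.77, adjusted p = 0.026). The groups overlapped in DSS colon (-0.49 ± 0.30) and in ileum (-0.22 ± 0.28). The Wnt target Axin2 was at 15.7, 15.3 and 19.4 against 32.6, 39.8 and 16.8 CPM (-0.82 ± 0.32), with SPF library 3 inside the COL range. Of 16 tested crypt stem and Wnt genes 2 had an unadjusted p under 0.05 downward (these 2, background 4.92%) and 0 upward (2.76%), and the median was 0.06. The stem cell receptor gene Lgr5 (-0.17 ± 0.55) overlapped.

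Firre (chromosome X, 50555744 to 50635321), a long noncoding RNA gene of the X chromosome that shapes nuclear organization, was at 15.5, 20.8 and 26.4 against 83.4, 75.2 and 34.1 CPM (-1.62 ± 0.32, adjusted p = 0.26). After DSS it was 30.9, 27.5 and 47.6 CPM in COL and 23, 24.8 and 23.1 CPM in SPF (0.58 ± 0.32), so that the order of the groups was the opposite there. The interaction was 2.20 ± 0.45 with an adjusted p of 0.38. Cnn2 (chromosome 10, 79988584 to 79996062), an actin-binding calponin gene, was at 15.7, 13.7 and 21.6 against 73.1, 38.7 and 28 CPM (-1.45 ± 0.32) and was lower without overlap in DSS colon as well (-0.82 ± 0.32). Men1, the gene of the chromatin scaffold menin, was at 28.2, 18.8 and 21.2 against 64.5, 65.7 and 31.4 CPM (-1.24 ± 0.28), and Nfic, a transcription factor gene, at 51.8, 52.8 and 47.9 against 134, 104 and 71.6 CPM (-1.02 ± 0.24). In each of these genes SPF library 3 was the SPF library closest to COL. Without it edgeR called Firre (-1.92, adjusted p = 0.023), Cnn2 (-1.72, adjusted p = 0.027), Men1 (-1.51, adjusted p = 0.026) and Nfic (-1.23, adjusted p = 0.027).

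**Figure D4:**
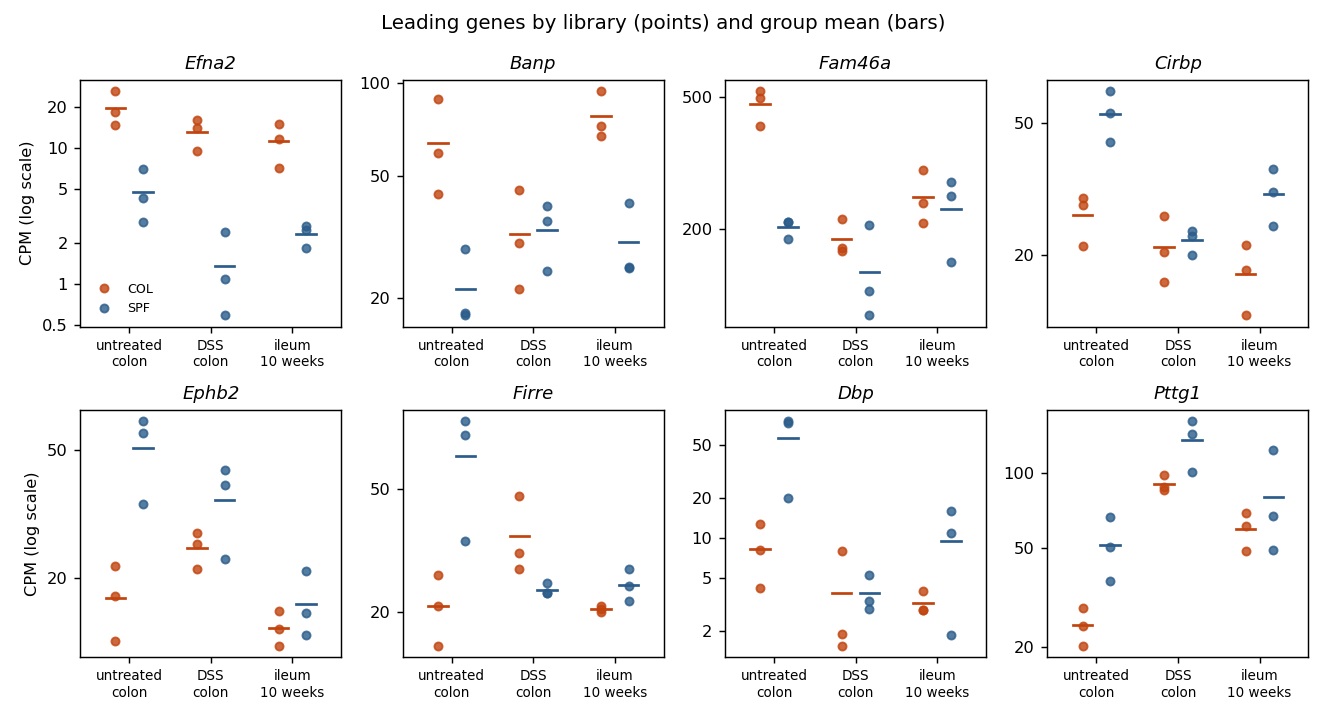
CPM (log scale) of 8 leading genes in every library (points) with group means (bars), for COL (orange) and SPF (blue) in untreated colon, DSS colon and 10-week ileum. Efna2 is higher in COL in all 3 settings, Cirbp is lower in COL in untreated colon and ileum, and the lowest SPF point of Ephb2, Firre and Pttg1 in untreated colon comes from SPF library 3.

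Pttg1 and Cenpa, genes of chromosome segregation that are not on the proliferation list, were lower in COL without overlap. Pttg1, the gene of securin, an inhibitor of the protease separase, was at 20.3, 28.7 and 24.3 against 66.6, 50.4 and 36.9 CPM (-1.07 ± 0.26), and Cenpa, the histone H3 variant of centromeres, at 11.9, 17 and 20.8 against 35.5, 45.9 and 27.8 CPM (-1.14 ± 0.27), and both passed in edgeR without SPF library 3 (-1.26, adjusted p = 0.029 for Pttg1 and -1.30, adjusted p = 0.038 for Cenpa). On the proliferation list 4 of 25 tested genes had an unadjusted p under 0.05 downward (background 4.92%) and 0 upward (2.76%), with a median of -0.17. These were the mitotic kinase gene Plk1 (-0.88 ± 0.28), the cyclin genes Ccna2 (-0.74 ± 0.29) and Ccnb2 (-0.75 ± 0.30) and the thymidine kinase gene Tk1 (-0.64 ± 0.29). The replication helicase genes Mcm3 (0.60 ± 0.30), Mcm6 (0.57 ± 0.29) and Mcm5 (0.58 ± 0.30) and the sliding clamp gene Pcna (0.45 ± 0.24) had positive values that missed that level. This split was picked out after the values were seen and was not tested, and Mki67, which marks cycling cells of every phase, was at 21.5, 40.2 and 45.9 against 29.5, 39.6 and 39.99 CPM (-0.02 ± 0.31). The count of 4 was 1, 2 and 8 without COL libraries 1, 2 and 3 and 1 without SPF library 2.

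Of 17 tested circadian clock genes 1 was higher and 2 were lower in COL at an unadjusted p under 0.05 (backgrounds 2.76% and 4.92%), and the median was 0.07. Dbp (chromosome 7, 45705088 to 45710203), a transcription factor whose level swings widely over the day, was at 12.7, 4.2 and 8.11 CPM in COL and at 72.6, 20.001 and 75.6 CPM in SPF (-2.74 ± 0.60, adjusted p = 0.33), and SPF library 2 was the one nearest to COL. Per3, at 5.55, 5.11 and 3.13 against 11.1, 7.39 and 18.5 CPM (-1.42 ± 0.52), followed it, while the repressor gene Cry1, which peaks at another time of day, was higher in COL at 28.7, 38.3 and 30.05 against 9.47, 19.6 and 15 CPM (1.13 ± 0.36). Nr1d1 (-1.21 ± 0.58) was low in SPF library 2 as well, at 277, 69.1 and 267 CPM in the SPF and 122, 39.6 and 103 CPM in the COL libraries. The core activators Clock (0.00 ± 0.22) and Arntl (0.34 ± 0.37) overlapped.

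Interferon response genes leaned higher in COL with wide errors. Of 28 tested type I genes 20 had a log2 fold change above 0 (background 47.7%), and 8 were higher and 1 lower without overlap (backgrounds 6.22% and 6.72%). An unadjusted p under 0.05 was found upward in 2 (2.76%) and downward in 0 (4.92%), and the median was 0.31. Rsad2, which encodes the antiviral enzyme viperin, was at 73.2, 69 and 41.5 against 17.6, 27.4 and 38.5 CPM (1.13 ± 0.47), Cmpk2, its neighbour in the genome, at 17.3, 12.6 and 18.1 against 4.21, 3.91 and 12.4 CPM (1.20 ± 0.60), and Mx2 at a few CPM gave 1.58 ± 0.66. Isg15, a ubiquitin-like modifier gene, was at 17.3, 19.2 and 13.1 against 4.21, 3.7 and 17.1 CPM (0.95 ± 0.47), so SPF library 3 lay within the COL range, and without it Isg15 passed (2.06, adjusted p = 0.028 by edgeR). In SPF library 3 Rsad2, Cmpk2 and Irf7 (0.61 ± 0.37) were also the highest of their group. Of 25 interferon-gamma response genes 2 were higher, Gbp3 (1.29 ± 0.45) and the immunoproteasome gene Psmb8 (0.63 ± 0.26), and 0 lower at an unadjusted p under 0.05 (backgrounds 2.76% and 4.92%), with a median of 0.27.

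The interferon-stimulated response element was searched upstream of the type I genes in the same way, as its core (GAAA, any 2 bases, GAAA) on both strands, overlapping matches allowed. It occurred in 10 of 20 members with a window and in 3.46% of all genes (2.98% of windows). The windows of Isg15 (chr4:156200819-156201068, minus strand) and Rsad2 (chr12:26456453-26456702, minus strand) are shown as the strongest examples of the list with a match, with the core in capitals.
Isg15: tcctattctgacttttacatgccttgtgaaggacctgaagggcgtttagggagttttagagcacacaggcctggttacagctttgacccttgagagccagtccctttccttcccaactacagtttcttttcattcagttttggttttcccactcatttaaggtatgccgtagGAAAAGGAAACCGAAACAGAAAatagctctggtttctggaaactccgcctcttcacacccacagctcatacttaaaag
Rsad2: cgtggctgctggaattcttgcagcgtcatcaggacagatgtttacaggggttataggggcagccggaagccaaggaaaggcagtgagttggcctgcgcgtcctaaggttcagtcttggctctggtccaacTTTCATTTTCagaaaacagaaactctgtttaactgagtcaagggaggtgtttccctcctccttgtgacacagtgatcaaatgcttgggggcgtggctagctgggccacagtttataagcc
In Isg15 the capitals hold 3 overlapping matches, and in Rsad2 they hold 1 match on the other strand. Oas3 and Bst2 also held the core, with log2 fold changes of -0.16 and -0.47.

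Genes of resident macrophages formed 1 of the 37 gene lists. Of 23 tested genes of these cells, 0 were higher and 2 lower at an unadjusted p under 0.05 (backgrounds 2.76% and 4.92%), the median was -0.06, and 10 had a 95% interval within 2-fold (background 53.3%). The colony-stimulating factor receptor gene Csf1r was at 20.8, 13.1 and 20.8 against 29.2, 18.7 and 14.1 CPM (-0.17 ± 0.38, 95% interval -0.98 to 0.64), the fractalkine receptor gene Cx3cr1 at 13.2, 9.31 and 13.8 against 17.6, 13 and 11.6 CPM (-0.21 ± 0.31), and Adgre1, which encodes the antigen F4/80, at -0.26 ± 0.45. All overlapped. The 2 lower genes were C1qc, at 29.5, 37.2 and 33 against 112, 66.5 and 25.1 CPM (-1.02 ± 0.40), a complement gene, and the endotoxin coreceptor gene Cd14, at 110.3, 115 and 138 against 189, 441 and 110.2 CPM (-1.03 ± 0.44). SPF library 3 lay below the COL range for both, and without it C1qc passed in edgeR (-1.42, adjusted p = 0.038). The fold changes of the other complement genes C1qa (0.29 ± 0.33) and C1qb (-0.48 ± 0.39) differed in sign. In tissue RNA fewer cells of a type and less RNA per cell cannot be told apart.

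Other immune lists held few testable genes. Of the 16 monocyte and neutrophil genes 7 passed the filter on low counts, and of 20 listed T cell and intraepithelial lymphocyte genes 6 did. On both lists 0 had an unadjusted p under 0.05 in either direction (backgrounds 2.76% higher and 4.92% lower). Among cytokines Tnf, at 0.634, 0.913 and 0.184 against 2.63, 2.17 and 0.952 CPM (-1.65 ± 0.64), Ccl7 (-1.79 ± 0.76) and the eosinophil attractant gene Ccl11 (-1.19 ± 0.54) were the 3 of 19 tested that were lower at that level (background 4.92%), and 0 were higher (2.76%). The summed level of the 14 B cell and follicle genes found in the files varied by library within both groups, from 30.6 to 121 CPM in COL and from 17.1 to 110 CPM in SPF. On the plasma cell list Prdm1 (0.97 ± 0.26), also an epithelial gene, and Fam46c (1.14 ± 0.45) were higher and Irf4 (-1.18 ± 0.50) was lower, while the IgA joining chain gene Jchain (0.59 ± 0.48) and the IgA transporter gene Pigr (0.03 ± 0.29) overlapped.

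Of 18 tested epithelial genes known to respond to bacteria, 1 was lower and 0 higher at an unadjusted p under 0.05 (backgrounds 4.92% and 2.76%), with a median of -0.24. That gene was Pla2g2a, a secreted antibacterial phospholipase, at 198, 154 and 169 against 559, 282 and 239 CPM (-1.05 ± 0.31). The antibacterial lectin genes rested on single libraries, with Reg3g at 0.792, 0.548 and 46.8 against 2.1, 1.09 and 9.71 CPM and Reg3b at 0.158, 0.183 and 26.9 against 0.789, 1.74 and 9.71 CPM, so that COL library 3 held nearly all of the COL reads. Retnlb (-0.71 ± 0.53), Saa1 (-0.26 ± 0.30), Fut2 (-0.17 ± 0.40) and Nos2 (0.03 ± 0.74) overlapped. Saa1 and Fut2 had an unadjusted p under 0.05 upward in COL ileum (1.88 ± 0.60 and 2.88 ± 0.89), and the colon minus ileum differences (-2.13 ± 0.83 and -3.04 ± 1.17) had adjusted p of 0.67 and 0.67.

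Cell type genes of the epithelium were read in the same way. Of 20 tested goblet cell genes 0 had an unadjusted p under 0.05 in either direction (backgrounds 2.76% higher and 4.92% lower). Without overlap 4 were lower (background 6.72%), and the median was -0.03. The mucin gene Muc2 was at 3343, 3022 and 4123 against 8460.2, 4920.2 and 3507 CPM (-0.69 ± 0.49), high in SPF library 1. Of 26 colonocyte transport genes 15 had a 95% interval within 2-fold (background 53.3%). At an unadjusted p under 0.05, 1 was lower (the proton pump gene Atp12a, -0.75 ± 0.36, background 4.92%) and 0 were higher (2.76%). Of 17 enteroendocrine genes 0 reached that level, with the same backgrounds. All 24 respiratory chain genes had an interval within 2-fold (background 53.3%), the tightest of the lists.

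Metabolic genes differed in a few places. The sterol exporter pair Abcg5 and Abcg8, which together pump cholesterol and plant sterols into the gut lumen, was higher in COL (the 2 of 8 tested genes of bile acid and sterol transport with an unadjusted p under 0.05, background 2.76%), at 22.7, 60.6 and 56.8 against 17.4, 9.78 and 18.5 CPM for Abcg8 (1.62 ± 0.44) and 42.5, 116 and 80.7 against 37.6, 22.6 and 36.6 CPM for Abcg5 (1.30 ± 0.46). COL library 1 was the lowest of its group for both. The sterol synthesis enzyme genes Nsdhl (-0.67 ± 0.25) and Lss (-0.63 ± 0.29) were lower without overlap, each at an unadjusted p under 0.05. On the xenobiotic list 4 of 25 were lower and 0 higher at that level (backgrounds 4.92% and 2.76%). These were the aryl hydrocarbon receptor gene Ahr, at 21.5, 22.8 and 16.2 against 39.5, 31.3 and 26.5 CPM (-0.68 ± 0.26), Sult1c2 (-1.04 ± 0.41), Cyp2d26 (-0.79 ± 0.35) and Gstm1, at 396, 362 and 483 against 2218, 1202 and 419.7 CPM (-1.63 ± 0.62). Gstm1 in SPF library 3 was within the COL range, and Cyp2d26 was higher in COL after DSS (2.05 ± 0.48).

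Immediate early genes went both ways. Junb (-0.77 ± 0.27), Zfp36 (-0.63 ± 0.26) and Gadd45b (-0.97 ± 0.35) were lower and Fosl2 (0.62 ± 0.25), Jun (0.58 ± 0.25) and Klf6 (0.50 ± 0.23) higher among 21 tested at an unadjusted p under 0.05 (backgrounds 4.92% and 2.76%), with a median of -0.14. Junb was at 126, 140.4 and 133 against 263, 187 and 229.6 CPM without overlap.

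Of 26 tested collagen, matrix and fibroblast genes 18 were below 0 in untreated colon, while 47.7% of all genes were above 0. At an unadjusted p under 0.05, 4 were downward (background 4.92%) and 1 upward (2.76%), and the median was -0.31. The direction was not shared by the other settings, with 4 upward and 1 downward after DSS (backgrounds 3.59% and 4.43%) and 7 upward and 0 downward in ileum (2.77% and 3.65%), and the colon minus ileum difference was negative for 11 of 26 (3.4%). Col6a2 was at 70.7, 79.95 and 98.6 against 314, 177 and 71.4 CPM (-1.17 ± 0.37), Postn at 84, 93.6 and 84.1 against 141, 519 and 69.1 CPM (-1.48 ± 0.61), Col4a2 gave -0.58 ± 0.22 and Col6a1 -0.66 ± 0.26. The summed level of the list was 3220.06 to 3397 CPM in COL and 3642 to 4518 CPM in SPF, without overlap. Except for Col4a2, SPF library 3 lay within or below the COL range for these genes, and without it Col6a2 passed in edgeR (-1.56, adjusted p = 0.026). The upward gene was Grem1, an antagonist of BMP signals from crypt fibroblasts, at 8.4, 9.86 and 9.59 against 3.68, 4.78 and 7.24 CPM (0.81 ± 0.33), and it was higher in COL without overlap after DSS too (1.08 ± 0.32). Of 18 smooth muscle genes 0 had an unadjusted p under 0.05, with a median of -0.20, and their summed level was 10057 to 11612 CPM in COL and 11407 to 12037 CPM in SPF. The part of these tissue layers in the chaperone difference was not tested.

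**Figure D5:**
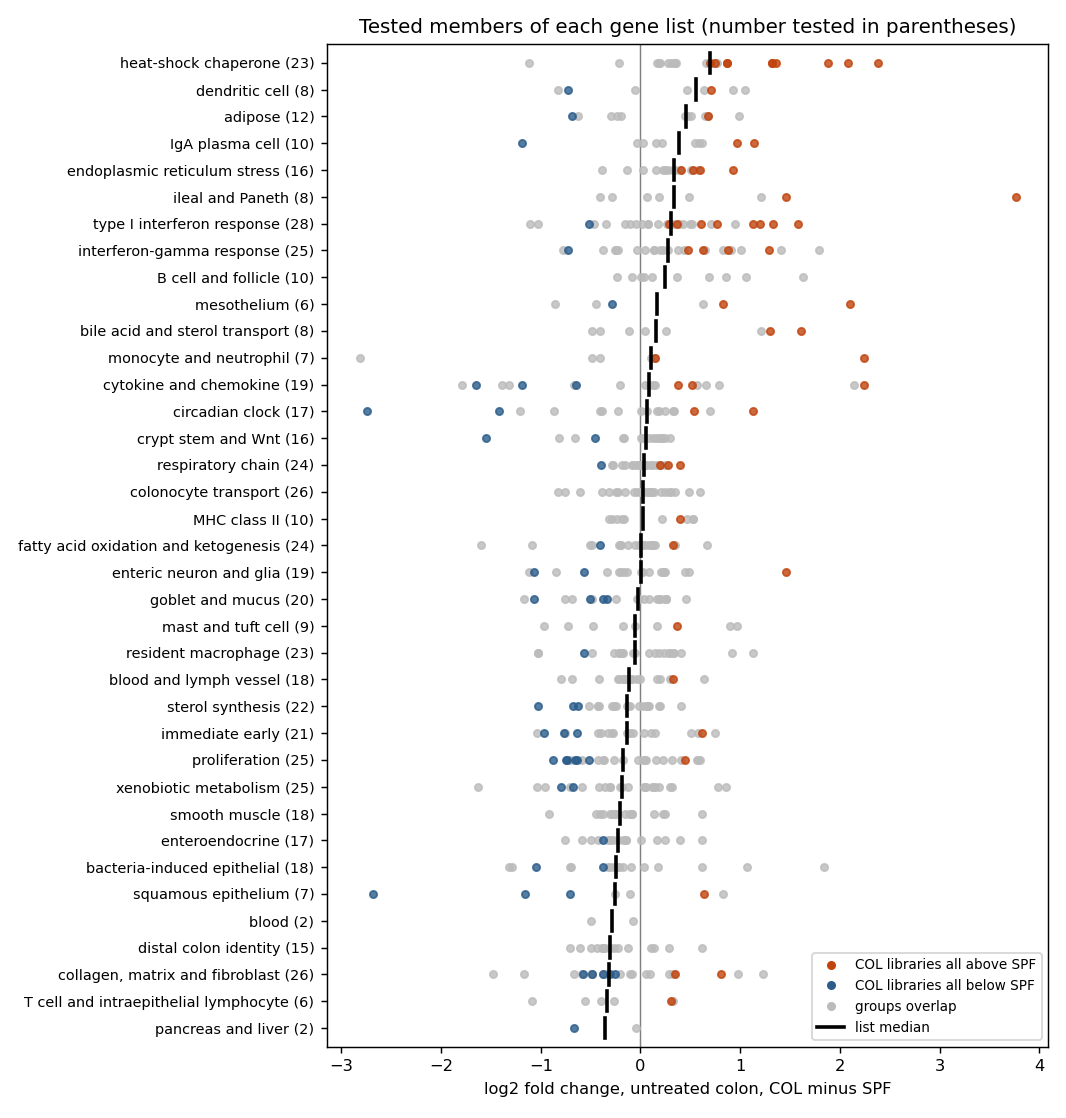
Log2 fold change, COL minus SPF, in untreated colon of every tested member (points) of 37 gene lists, sorted by list median (black bar). Orange points are genes whose 3 COL libraries lie above the 3 SPF libraries, blue points the reverse, grey points overlap. The heat-shock chaperone list has the highest median, 0.70.

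Leaving out SPF library 3 turned 0 calls into 94 of 13109 genes (0.717%), 13 higher and 81 lower in COL. Of the 28 genes that DESeq2 called with all 6 libraries, 14 were among these 94. Among the 80 lower genes that were tested with all libraries, SPF library 3 lay at or below the highest COL library in 57, a pattern that the choice of the library left out favours. Igfbp7, which encodes a secreted binding protein of vessels and stroma, was at 58.1, 97.3 and 102 against 258, 302 and 41.7 CPM, the cytoskeletal adducin gene Add1 at 206, 210.5 and 224 against 589, 576 and 242 CPM, and the tetraspanin gene Cd151 at 122, 172 and 140.1 against 432, 361 and 134 CPM. In these 3 genes SPF libraries 1 and 2 were far above COL and SPF library 3 was below the COL range, within it or just above it. Without it the fold changes were -1.71, adjusted p = 0.023 for Igfbp7, -1.45, adjusted p = 0.026 for Add1 and -1.46, adjusted p = 0.026 for Cd151 by edgeR. Of the 13 higher genes, Sgk2, a kinase gene of ion transport, was at 83.5, 91.6 and 87.4 against 37.1, 37 and 64.5 CPM, and Efna1, another ephrin gene, at 215, 244 and 149 against 54.7, 105 and 215 CPM. Without SPF library 3 edgeR gave 1.24, adjusted p = 0.028 for Sgk2 and 1.34, adjusted p = 0.044 for Efna1. Leaving out SPF library 2 gave 1 call (0.00762%), and leaving out any other of the 6 libraries gave 0.

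As a check of reach, data simulated with means and spread estimated from the libraries were run through the same test. It recovered 23% of genes changed 2-fold and 85% of genes changed 4-fold, among 12855 genes, with 8 false calls, and DESeq2 recovered 34% and 88% with 22 false calls. For the DSS minus untreated interaction 0 of 12855 genes were called (1122 at an unadjusted p under 0.05, 17 by DESeq2), and the test recovered 2% and 62% at those folds. For the colon minus ileum difference 0 of 13807 were called (914 at an unadjusted p under 0.05, 5 by DESeq2), with 10% and 58% recovered. These rates describe simulated data with 100 genes changed at each fold. In the real libraries the root mean square difference was 0.52 to 0.54 within COL and 0.67 to 0.87 within SPF. Genes such as Hspa1a (2.38) and Dbp (-2.74) were past 4-fold in untreated colon and were not called by edgeR. The rates therefore do not show what share of real changes was found.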

How the data were processed

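Whole-number counts of reads per gene symbol were used as deposited. Per the labels' protocols the libraries were made with a 3′ tag kit, and per the submitters' processing notes the authors used Trimmomatic 0.36, FastQC 0.11.5, STAR 2.5.3a, HTSeq and the mouse build mm10 to make these counts. The HTSeq version, strand setting and annotation are not given in the sources used here. The 5 summary lines were left out, which left 24746 symbols.

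COL and SPF were compared with edgeR 4.0.16 (quasi-likelihood test, TMM scaling, filterByExpr, robust fit, Benjamini-Hochberg) in R 4.3.3 over the 12 colon libraries, which share 1 estimate of spread, and the contrasts with ileum over 30 libraries. Standard errors are the absolute log2 fold change over the square root of F. DESeq2 1.42.0, no filter, other scaling, only the libraries compared, a replicate block and leaving out each library were alternatives. The scripts were tested on simulated data. Gene positions are from GENCODE vM21 (mm10), matched by symbol, and upstream sequences from RefSeq (GRCm38.p6).

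The libraries compared and the gene lists were chosen with earlier results of these data known. Named genes are the 10 per direction with the smallest unadjusted p, no overlap between groups and a log2 CPM averaging 3 or more (predicted, small RNA and mitochondrial genes left out), genes called by DESeq2 or without SPF library 3, up to 3 leading genes of each list, and a set of fixed genes. Other list members are named to show how a list divides, and these were picked after their values were seen. Counting error is smaller than the spread between libraries for most named genes, and genes of a few CPM are the least precise. Some results are not reported here.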

Additional observations from a re-analysis of the deposited data

Results flagged for a closer look

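Firre was lower in every COL library than in every SPF library of untreated colon and higher in every COL library after DSS. The DSS minus untreated difference was 2.20 on the log2 scale, with an adjusted p of 0.38 by edgeR, so it did not pass.

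Dmkn, which encodes the epidermal protein dermokine, was at 4.44, 2.37 and 3.69 CPM in untreated COL colon and at 8.42, 7.61 and 7.62 CPM in untreated SPF colon. After DSS it was higher in all 3 COL libraries, and the DSS minus untreated difference was 3.17 (adjusted p = 0.46 by edgeR). In 10-week ileum it was also higher in all 3 COL libraries, and the colon minus ileum difference was -3.56 (adjusted p = 0.63 by edgeR). Neither difference passed, and these levels of a few CPM rest on few reads.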

How the results depend on the processing

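The count of genes called in untreated colon was 0 with edgeR, and it stayed 0 with other scaling, with only the 6 libraries and with the replicate block. It was 28 with DESeq2, 8 with no filter on low counts, and 0 to 94 when 1 library was left out. The 94 came from leaving out SPF library 3, and SPF library 2 gave 1. For the DSS minus untreated difference DESeq2 called 17, and leaving out 1 library gave 0 to 1 (1 without SPF library 1 after DSS and 1 without untreated SPF library 2). For the colon minus ileum difference DESeq2 called 5, and leaving out 1 library gave 0 to 8 (8 without untreated SPF library 3, 7 without 10-week SPF ileum library 1, and 1 each without untreated COL library 3 and untreated SPF library 1). The cause of these differences was not tested. Over all genes, same-numbered untreated colon libraries did not deviate together (r = -0.11, 0.03 and -0.08). With 3 libraries a group this cannot show whether the numbers pair them. The replicate block gave 0 calls in all 3 comparisons. The number of genes whose 95% interval lies within 2-fold was 5225 to 6342 with 1 library left out and 6850 to 6940 otherwise. Of the refits of 149 named genes 1569 stayed on the same side of the threshold and 60 passed it where the gene missed it with all libraries. Without COL library 3 the log2 fold changes of Reg3b and Reg3g were -4.46 and -2.67, against 1.07 and 1.84 with all libraries. Nos2, Csf1r, Adgre1, Cd163 and Pigr, none of them past the threshold, also changed sign when a library was left out. Of the list medians, 18 of 296 moved. Among them the B cell and follicle median was 2.05 without SPF library 2.

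With 3 libraries a group, their number limits the precision, and genes of a few CPM most of all.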

Other observations

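Of 19 tested enteric neuron and glia genes in untreated colon 1 was lower and 0 higher at an unadjusted p under 0.05 (backgrounds 4.92% and 2.76%), with a median of 0.00. Of 18 blood and lymph vessel genes 0 reached that level, with a median of -0.11. The summed level of 10 mesothelium genes was 1845 to 2152 CPM in COL and 2415 to 2760.1 CPM in SPF, without overlap, although 1 of its 6 tested genes was higher in COL and 0 were lower at that level. On the mesothelium list Upk3b, Wt1, Lrrn4 and Bnc1 did not pass the filter on low counts. The mesothelium sum therefore rests on the other genes of the list and may not measure mesothelium. Summed genes of blood cells stood at 26.5 to 32.3 CPM in COL and 25.2 to 47.1 CPM in SPF. Of these 10 genes 5 had no read in any of the 6 libraries, among them the globin genes Hba-a1, Hba-a2, Hbb-bs and Hbb-bt. This sum therefore says little about blood content.

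Of 24 fatty acid oxidation and ketogenesis genes 14 had a 95% interval within 2-fold (background 53.3%). At an unadjusted p under 0.05, 1 was lower (4.92%) and 0 were higher (2.76%), and the median was 0.00.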
